A study of Mus musculus with 17 samples.

Results

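Skeletal muscle loses mass when protein breakdown outpaces synthesis, and a small set of genes switched on by glucocorticoids and by the FoxO transcription factors is known to take part in this balance. The genes described here were 10 named members of that set, namely the ubiquitin ligase genes Fbxo32 and Trim63, the transcription factor genes Foxo1, Foxo3, Klf15 and Cebpd, the growth inhibitor gene Mstn, and Txnip, Ddit4 and Sesn1. They were chosen by name, with earlier results of these data known. Every probe set listed with exactly 1 gene symbol that was 1 of these 10 was taken. This gave 18 probe sets for 8 genes, out of 20380 single-symbol probe sets for 12393 genes. Trim63 and Mstn were not analysed here, since no probe set was listed with either symbol alone.

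The muscle was the tibialis anterior, a fast-twitch leg muscle, taken from mice labelled as males aged 56 days, with the muscles of both legs pooled. Each of 17 arrays held 1 sample: 6 from normal mice, 6 from mdx mice, and 5 from the transgenic line fiona. The mdx mouse lacks dystrophin, which links the fibre's cytoskeleton to the membrane, and its muscle goes through rounds of fibre damage, inflammation and regeneration. The fiona mice have the mdx background as well, together with a transgene for utrophin, a relative of dystrophin, at a high level. Neither the strain of the normal mice nor the promoter of the transgene is given in the sources used here. The labels call each array a biological replicate. How precisely a value is known is limited by the few arrays in a group.

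As background, insulin and IGF-1 signalling through Akt keeps FoxO proteins out of the nucleus, and when this signal falls FoxO factors raise the transcription of Fbxo32 and Trim63, whose ligases tag muscle proteins for the proteasome. Glucocorticoids, bound to their receptor, raise Klf15, Cebpd, Ddit4 and Foxo1 in muscle. Myostatin, the product of Mstn, restrains muscle growth through activin receptors.

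Values are the deposited log2 levels of a probe set, and differences are log2 values of the group named first minus the second. A probe set was called changed at an adjusted p under 0.05 in limma, fitted and adjusted over all 20380 probe sets. Array medians lay between 3.52 and 3.82. The control level, the array's median over 15 bacterial control probe sets to which no RNA was added, lay between 2.64 and 2.99, and a value at or under it is treated as no measured signal. Of the 18 probe sets, 3 lay at or under the control level on all 17 arrays, namely 1456529_at of Foxo1, 1450236_at of Foxo3 and 1456605_at of Cebpd. The other 15, with at least 1 for each of the 8 genes, had means above it.

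The Dmd probe set 1417307_at had means of 6.64 (normal), 3.35 (mdx) and 3.39 (fiona), and Utrn probe set 1427569_a_at had 2.12, 2.07 and 4.30, in the direction of the labels. Another Utrn probe set, 1452222_at, had 6.81, 6.98 and 6.57 and was not higher in fiona muscle. Markers of mature fast fibres were strong in every group, with 0 of 12 called between mdx and normal muscle. Residuals from the group means split the arrays into array set 1 (normal 3, 4 and 5, mdx 3, 4 and 5, fiona 1 and 4) and array set 2 (the rest), along a component with 42.6% of the residual variance. No label gives a batch. Although all mice are labelled male, 7 arrays (1 normal, 2 mdx, 4 fiona) had a female pattern of Xist and Eif2s3y, and mdx array 6 had a mixed pattern, with Xist at 5.40 and Eif2s3y at 8.11. Values within each array set, and without the 7 arrays, therefore stand beside the called members below. Without them fiona keeps 1 array, so those fits assume that it varies like the other groups.

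Between mdx and normal muscle, 3 of the 18 member probe sets were called, all lower in mdx, for 2 of the 8 genes: Foxo1 and Txnip. This was 16.7% of the member probe sets, against 4.05% of all probe sets in either direction (2.68% higher, 1.37% lower). The sign was negative for 13 of the 15 member probe sets with signal, against 63.0% of all probe sets with signal, and Cebpd and Ddit4 were the exceptions. An unadjusted p under 0.05 was found for 10 of the 18 (55.6%), against 17.5% of all probe sets, and for 2 of the 18 (11.1%) the groups did not overlap, against 4.52% of all. With the brightest probe set for each gene, the median difference of the 8 members was -0.67, and that of all genes was -0.04. Since the members were chosen with earlier results known, these comparisons with all probe sets, here and below, are descriptions and not tests.

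Between fiona and mdx muscle, 4 member probe sets were called, 3 higher and 1 lower, or 22.2% against 40.2% of all probe sets (34.1% higher, 6.05% lower). The members' share was thus under the background, and so was the share whose groups did not overlap, 3 of 18 (16.7%) against 34% of all. Of the 4 calls, 2 were on probe sets with no measured signal on any array (Foxo1 1456529_at and Foxo3 1450236_at) and carry no information on those genes. Called with signal were Txnip, higher, and Cebpd, lower. Centring each array on its median moved this comparison by 0.12 over all probe sets, and the share of all calls that were higher went from 85.0% to 45.6%. Centred values therefore stand beside the deposited ones where a call or a sign of a member with signal turned on the centring.

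Between fiona and normal muscle, 0 member probe sets were called by limma, against 0.00491% (1 probe set) of all. An unadjusted p under 0.05 was found for 6 of the 18 (33.3%), against 21.6% of all probe sets. All 15 member probe sets with signal had a negative difference, against 46.4% of all probe sets with signal, and the median difference over the 8 genes was -0.82, against 0.04 for all genes. The sign did not hold for every member under the alternatives: in array set 2 it was positive for Foxo3 1434831_a_at (0.32), Sesn1 1433711_s_at (0.027) and Foxo1 1416981_at (0.011). It was also positive with quantile normalization for Foxo3 1434831_a_at (0.085), and without the arrays of female pattern for Sesn1 1438931_s_at (0.25). Over the fits without 1 array, the difference of Foxo3 1434831_a_at ran from -0.25 to 0.046. The groups did not overlap for 3 of the 18 (16.7%), against 1.08% of all probe sets: both probe sets of Fbxo32 and 1 of Txnip.

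**Figure D1:**
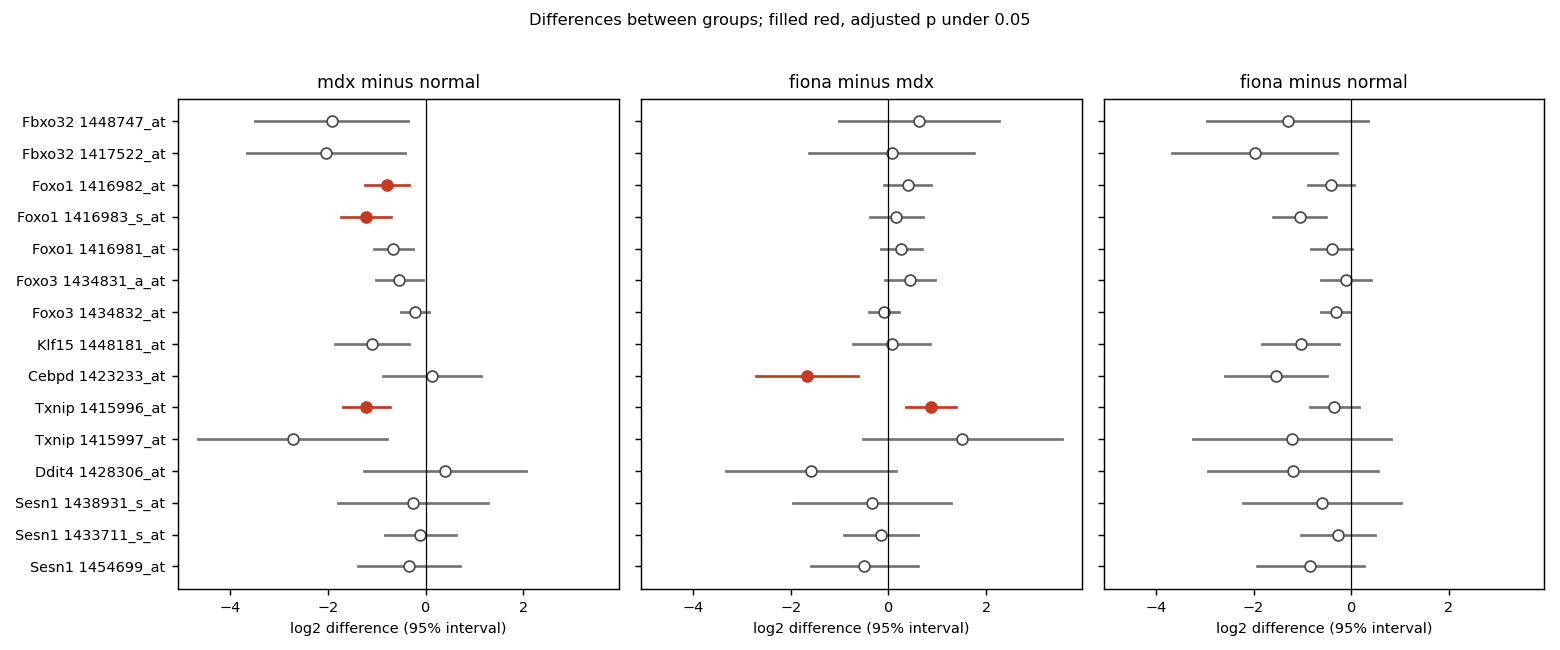
Differences of group means (log2) with 95% intervals from limma for the 15 member probe sets with signal in the 3 comparisons, as the group named first minus the second, with called probe sets filled. In the comparison of mdx with normal muscle nearly all points lie below 0. Fbxo32 1448747_at stands at -1.92 with an interval from -3.49 to -0.36. It was not called (adjusted p = 0.186 in limma), and its mdx mean includes the low arrays 1 (4.56) and 4 (5.83).

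Foxo1 encodes a FoxO factor that is held in the cytoplasm by Akt and that turns on atrophy genes when released. On its probe set 1416983_s_at, the lowest, median and highest values were 5.48, 6.55 and 7.15 in normal muscle and 4.90, 5.29 and 5.45 in mdx muscle. The fiona arrays 1 to 5 measured 5.24, 5.49, 5.30, 5.47 and 5.45. Every mdx array lay below every normal array, and 4 of the 5 fiona arrays lay below every normal array too. The normal mean was 6.44 ± 0.68 (SD, n = 6), the mdx mean 5.23 ± 0.21 (n = 6) and the fiona mean 5.39 ± 0.11 (n = 5). The difference of mdx from normal muscle was -1.22 (SE 0.24, adjusted p = 0.00804 in limma; two-sided exact permutation p = 0.00216, the smallest these group sizes allow), a 2.33-fold lower level. Normal arrays 3, 4 and 5, which make up array set 1, held the 3 highest values.

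Within array set 1 the Foxo1 difference of mdx from normal muscle on that probe set was -1.80, and within array set 2 it was -0.63 (adjusted p = 0.264 in limma). Without the arrays of female pattern it was -1.29, with an adjusted p of 0.0945. Pairing mdx and normal arrays by number raised the adjusted p to 0.0752 in limma, and the call was lost. Same-numbered mdx and normal arrays also share an array set, so whether these mice were paired is not known. Between fiona and mdx muscle the difference was 0.16 (95% interval -0.37 to 0.70), which misses the threshold. Between fiona and normal muscle it was -1.06, unadjusted p = 0.000761 in limma and adjusted p = 0.212, and an adjusted p of 0.0457 was reached without fiona array 2.

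The other Foxo1 probe sets with signal ran the same way. On 1416982_at the normal mean was 6.46 ± 0.54, the mdx mean 5.66 ± 0.32 and the fiona mean 6.05 ± 0.12 (SD, n = 6, 6 and 5). Its mdx difference of -0.80 was called at an adjusted p of 0.0478, a call that was lost in 14 of the 17 fits that left out 1 array and, with the pairing of mdx and normal arrays, at 0.213. On 1416981_at the difference was -0.67 (adjusted p = 0.0620). All 5 fiona arrays on this probe set, from 4.97 to 5.03, lay above all mdx arrays, from 4.31 to 4.97, but the difference of 0.27 was not called (adjusted p = 0.301). For Foxo1 the order of the means was thus normal, fiona, mdx on all 3 probe sets, and fiona was not called apart from either neighbour.

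Foxo3 encodes the FoxO factor best known for driving Fbxo32 and autophagy genes in muscle. On 1434831_a_at, its brighter probe set, the lowest, median and highest values were 5.68, 6.50 and 7.14 in normal and 5.44, 5.84 and 6.38 in mdx muscle. In fiona muscle, arrays 1 to 5 measured 6.29, 5.90, 6.35, 6.26 and 6.66. The 3 groups overlapped, and the highest normal values were again those of arrays 3, 4 and 5. The mdx difference from normal muscle was -0.54 (SE 0.23, adjusted p = 0.233), and the fiona difference from mdx muscle was 0.44 (adjusted p = 0.156). On 1434832_at the mdx difference from normal muscle was -0.23 (adjusted p = 0.333) and the fiona difference from mdx muscle was -0.09 (adjusted p = 0.637), so the 2 probe sets differ in sign for the second comparison and neither was called in any comparison.

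Klf15 encodes a zinc-finger factor that the glucocorticoid receptor turns on directly and that promotes amino acid breakdown in muscle. Its probe set 1448181_at measured 6.92, 8.30 and 8.82 (lowest, median, highest) in normal muscle and 6.50, 6.83 and 7.51 in mdx muscle. The fiona arrays 1 to 5 measured 7.96, 6.96, 7.09, 6.73 and 6.23. All 6 mdx arrays lay under the normal mean of 8.03 ± 0.79 (SD, n = 6), but the lowest normal arrays, 1 and 2, lay within the mdx range. The difference of -1.10 (SE 0.35) was not called (adjusted p = 0.104; two-sided exact permutation p = 0.0195). Within array sets it was -1.42 in set 1 and -0.78 in set 2, and with the array set as a block its adjusted p was 0.0129. The fiona difference from normal muscle was of similar size, -1.04 (95% interval -1.82 to -0.25, adjusted p = 0.212), and from mdx muscle it was 0.06 (95% interval -0.72 to 0.85), or -0.061 after centring.

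Cebpd encodes a leucine-zipper factor induced by glucocorticoids and by inflammatory cytokines. On 1423233_at it measured 5.73, 6.23 and 7.48 in normal and 5.48, 6.80 and 7.85 in mdx muscle (lowest, median, highest). Values on fiona arrays 1 to 5 were 6.12, 4.97, 4.63, 5.18 and 3.93. Of the 5 fiona arrays, 4 lay below every normal and every mdx array, and fiona array 1 lay within both ranges. The normal mean was 6.50 ± 0.74 (SD), the mdx mean 6.64 ± 0.96 and the fiona mean 4.97 ± 0.80. The difference of fiona from mdx muscle was -1.67 (SE 0.49, adjusted p = 0.0180 in limma; two-sided exact permutation p = 0.0195), a 3.19-fold lower level, and centring gave -1.80.

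Cebpd had the only called decrease from mdx to fiona muscle among the member probe sets. It was -1.75 within array set 1 and -1.37 within array set 2 (adjusted p = 0.212). Leaving out fiona array 5 gave -1.41 with an adjusted p of 0.0503 in limma. Leaving out the arrays of female pattern, which keeps 1 fiona array, gave -1.38. With sex pattern as a block, which keeps all 17 arrays, it was -1.61 (adjusted p = 0.0347 in limma). Against normal muscle, fiona differed by -1.54 (unadjusted p = 0.00688, adjusted p = 0.212) and mdx by 0.13 (adjusted p = 0.854). The order of the means was thus mdx, normal, fiona, with mdx and normal muscle not called apart.

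Fbxo32 encodes atrogin-1, the F-box part of a ubiquitin ligase and a defining gene of muscle atrophy. On 1448747_at it measured 9.37, 9.54 and 10.06 in normal muscle and 4.56, 8.39 and 9.59 in mdx muscle (lowest, median, highest). In fiona muscle, arrays 1 to 5 measured 9.25, 7.40, 8.13, 8.90 and 8.01. The normal arrays lay close together, while mdx arrays 1 (4.56) and 4 (5.83), both of female pattern, lay far below the other 4 mdx arrays. In all, 4 of the 6 mdx arrays lay below every normal array, while mdx arrays 3 (9.52) and 5 (9.59) lay within the normal range. Over the fits without 1 array, the mdx difference from normal muscle ran from -2.30 to -1.29. The normal mean was 9.64 ± 0.26 (SD), the mdx mean 7.71 ± 2.09 and the fiona mean 8.34 ± 0.74. The mdx difference from normal muscle of -1.92 (SE 0.73) was not called (adjusted p = 0.186), nor was the fiona difference of -1.30 (adjusted p = 0.309), although every fiona array lay below every normal array (two-sided exact permutation p = 0.00216). With sex pattern as a block this fiona difference was -0.078 (adjusted p = 0.958 in limma), and without the arrays of female pattern it was -0.77 (adjusted p = 0.781).

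On the other Fbxo32 probe set, 1417522_at, the values were 8.40, 9.04 and 9.81 in normal and 2.59, 7.76 and 8.47 in mdx muscle. The fiona arrays 1 to 5 measured 7.47, 7.43, 6.95, 6.52 and 6.96. Here mdx array 4, at 2.59, was under its control level of 2.69, whereas mdx array 1, at 7.39, lay near the remaining mdx arrays. Arrays 1 and 4 were thus the 2 lowest mdx arrays on both Fbxo32 probe sets. Array 4 was far below most mdx arrays on both, and array 1 only on 1448747_at. On 1417522_at the mdx difference from normal muscle was -2.04 (adjusted p = 0.172 in limma). The fiona difference from normal muscle was -1.97 (adjusted p = 0.212), and fiona and mdx muscle differed by 0.06 (95% interval -1.63 to 1.76).

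That 1 array, mdx 4, decided the call for Fbxo32 on this probe set. Without it, the mdx difference from normal muscle was -1.16 (adjusted p = 0.0222), the fiona difference from normal muscle stayed at -1.97 (adjusted p = 0.0213), and fiona turned from 0.06 above mdx muscle to 0.82 below it (-0.82, adjusted p = 0.0349). On 1448747_at, the fiona difference from mdx muscle lay between -0.01 and 1.00 over the fits that left out 1 array. With all arrays, normal muscle had the highest Fbxo32 mean on both probe sets. No order of fiona and mdx muscle held, since on 1417522_at their difference was -0.060 after centring and -0.026 with the array set as a block, and without the arrays of female pattern it was negative on both probe sets (-1.48 and -0.071).

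**Figure D2:**
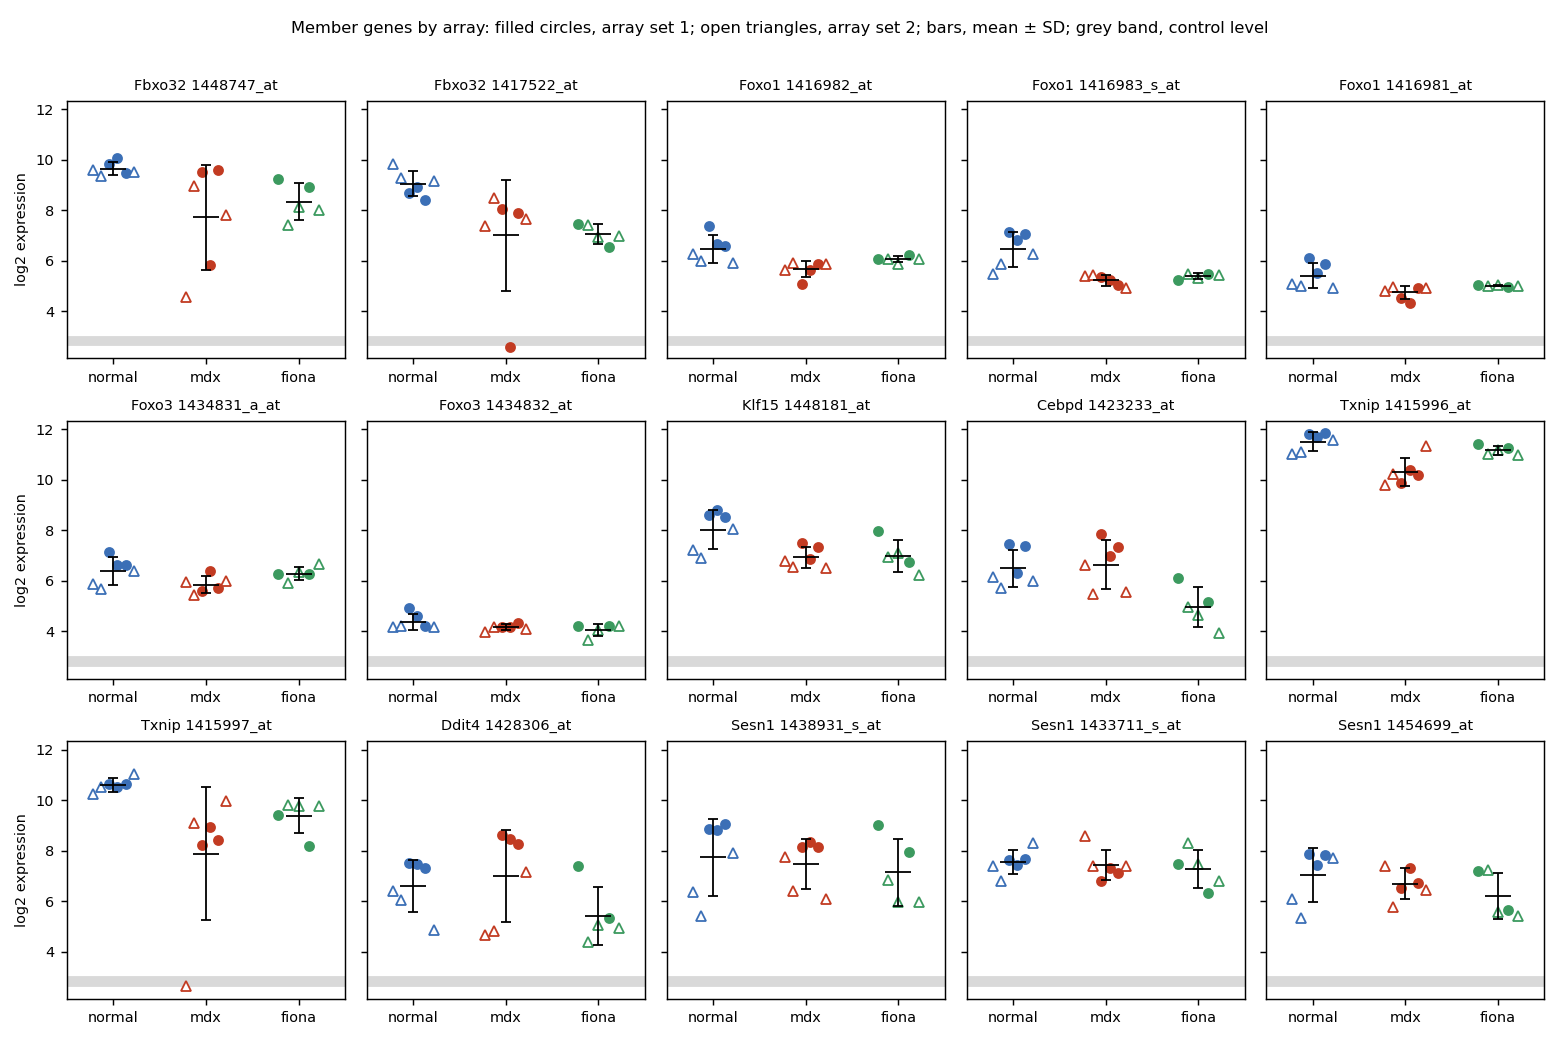
Log2 level of the 15 member probe sets with signal on each of the 17 arrays, by group and array set, with the group mean ± SD and a band for the control level. On Fbxo32 1448747_at, mdx arrays 1 and 4 stand apart, at 4.56 and 5.83. On Fbxo32 1417522_at mdx array 4 does, at 2.59, and on Txnip 1415997_at mdx array 1, at 2.63.

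Txnip encodes a thioredoxin-binding arrestin that lowers glucose uptake, and it is raised by glucose, by glucocorticoids and by FoxO factors. On 1415996_at it measured 11.03, 11.64 and 11.88 in normal muscle and 9.79, 10.22 and 11.33 in mdx muscle (lowest, median, highest). Values on fiona arrays 1 to 5 were 11.42, 11.02, 11.20, 11.25 and 10.99. Of the 6 mdx arrays, 5 lay below every normal and every fiona array, and mdx array 6, which had the mixed sex pattern, lay within both. Normal muscle averaged 11.52 ± 0.36, mdx muscle 10.31 ± 0.55 and fiona muscle 11.18 ± 0.18 (SD, n = 6, 6 and 5).

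Txnip fell by 1.21 on the log2 scale from normal to mdx muscle (SE 0.23, adjusted p = 0.00540 in limma; two-sided exact permutation p = 0.00649), a 2.32-fold lower level. It was 0.87 higher in fiona than in mdx muscle (SE 0.24, adjusted p = 0.0142; exact permutation p = 0.0173), a 1.83-fold higher level. Fiona and normal muscle differed by -0.34 (95% interval -0.85 to 0.16, adjusted p = 0.377). On probe sets with signal, Txnip was the only member gene called in opposite directions in these 2 comparisons, which share the mdx arrays. With median-centred arrays the fiona difference from mdx muscle was 0.75, with an adjusted p of 0.0621, so this call depends on the scaling.

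Within the array sets the mdx difference from normal muscle for Txnip was -1.64 in set 1 and -0.79 in set 2 (adjusted p = 0.434), and the fiona difference from mdx muscle was 1.18 and 0.62 (adjusted p = 0.290 in set 2). Without the arrays of female pattern they were -1.10 (adjusted p = 0.0945) and 0.84 (adjusted p = 0.337). Without mdx array 6 as well, the first was -1.40 (adjusted p = 0.0403) and the second 1.14 (adjusted p = 0.111). Directions held in each of these subsets. Both calls held in array set 1, and both were lost in array set 2 and without the arrays of female pattern.

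On the other Txnip probe set, 1415997_at, all 6 mdx arrays, from 2.63 to 9.98, lay below all 6 normal arrays, from 10.24 to 11.04, and all fiona arrays, 9.41, 9.81, 9.76, 8.17 and 9.78, lay below them too. On mdx array 1 this probe set was at 2.63, under the control level of 2.72, and 1415996_at also gave its lowest mdx value there. On 1415997_at, mdx differed from normal muscle by -2.72 (adjusted p = 0.122), and without mdx array 1 it was -1.68 with an adjusted p of 0.0102. The fiona difference from normal muscle of -1.21 was not called (adjusted p = 0.441, two-sided exact permutation p = 0.00216). Fiona was 1.51 above mdx muscle on 1415997_at, and this was not called either (adjusted p = 0.222 in limma). That difference was 0.27 in array set 1 and 2.56 in array set 2, which holds mdx array 1. The other mdx arrays of set 2 measured 9.08 and 9.98. Over the fits without 1 array it ran from 0.47, without mdx array 1, to 1.93. The higher Txnip level in fiona than in mdx muscle was thus called on 1415996_at only.

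Promoter sequences are shown for the 2 genes called lower in mdx muscle and for Klf15, the nearest to a call of the other transcription factor genes. They are the 250 bases before a RefSeq transcription start in GRCm38.p6, on the gene's strand: Txnip at chr3:96557707-96557956 (plus), Foxo1 at chr3:52268087-52268336 (plus) and Klf15 at chr6:90462326-90462575 (plus). The start used for Klf15 is not the first base of the gene, which begins at 90461043, so this window lies inside the gene. Capitals mark a match to a searched motif.
Txnip: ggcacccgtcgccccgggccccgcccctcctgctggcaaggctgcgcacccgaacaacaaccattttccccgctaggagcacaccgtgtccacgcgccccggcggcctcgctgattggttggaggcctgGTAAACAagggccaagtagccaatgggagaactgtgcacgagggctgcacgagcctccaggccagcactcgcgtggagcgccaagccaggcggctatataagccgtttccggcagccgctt
Foxo1: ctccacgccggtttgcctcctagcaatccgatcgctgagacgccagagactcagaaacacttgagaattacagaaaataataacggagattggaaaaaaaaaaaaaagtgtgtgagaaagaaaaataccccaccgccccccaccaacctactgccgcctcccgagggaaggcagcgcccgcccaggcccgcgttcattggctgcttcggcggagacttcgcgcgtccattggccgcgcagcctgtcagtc
Klf15: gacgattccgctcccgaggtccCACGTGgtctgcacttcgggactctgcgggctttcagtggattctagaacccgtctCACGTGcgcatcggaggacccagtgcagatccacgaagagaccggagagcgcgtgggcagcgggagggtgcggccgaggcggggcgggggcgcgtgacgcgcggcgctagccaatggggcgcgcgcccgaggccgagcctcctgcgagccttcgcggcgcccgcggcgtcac
The motifs searched, on both strands, were the forkhead motif GTAAACA, bound by FoxO factors, the palindrome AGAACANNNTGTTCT and its single arm AGAACA, bound by the glucocorticoid receptor, and the E-box CACGTG. The single arm is part of the palindrome, and in these windows matches to different motifs did not overlap. They occur in 3.17%, 0.00913%, 16.1% and 6.02% of 32851 RefSeq promoter windows of this length. Txnip held GTAAACA from 121 to 115 bases before its start, Klf15 held CACGTG from 228 to 223 and from 172 to 167 bases before its start, and Foxo1 held no match in this window. Windows were given for 8 of the 10 genes, not for Fbxo32 or Cebpd. Of these 8 genes, Trim63 also held GTAAACA, from 194 to 188 bases before its start, and AGAACA, from 200 to 195, both on the other strand. A match is a string of letters and says nothing of binding in this muscle.

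Ddit4 encodes REDD1, an inhibitor of mTORC1 that is induced by glucocorticoids, hypoxia and energy stress. Its probe set 1428306_at measured 4.87, 6.86 and 7.50 in normal and 4.65, 7.71 and 8.63 in mdx muscle (lowest, median, highest). The fiona arrays 1 to 5 measured 7.39, 4.38, 5.05, 5.31 and 4.94. Values were high on 3 mdx arrays of array set 1, from 8.26 to 8.63, and low on mdx arrays 1 and 2, at 4.65 and 4.83. Normal muscle averaged 6.60 ± 1.05, mdx muscle 7.0 ± 1.82 and fiona muscle 5.41 ± 1.15 (SD), and no difference was called. For fiona against mdx muscle it was -1.58 (SE 0.82, adjusted p = 0.136), with -2.10 in set 1 and -0.75 in set 2, and with the array set as a block it was -1.37 (adjusted p = 0.0364). Without mdx array 1 it was -2.05 (adjusted p = 0.0496).

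Sesn1 encodes sestrin 1, a leucine-sensing restraint on mTORC1 that FoxO factors and p53 raise. On 1438931_s_at, the brightest of its 3 probe sets, it measured 5.41, 8.36 and 9.06 in normal and 6.07, 7.95 and 8.35 in mdx muscle (lowest, median, highest). In fiona muscle, arrays 1 to 5 measured 9.0, 6.82, 5.97, 7.95 and 5.96. The 3 groups covered nearly the same range. The largest difference between groups over the 3 probe sets was -0.84 (1454699_at, fiona against normal muscle, 95% interval -1.94 to 0.26, adjusted p = 0.326), and none was called.

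Several member probe sets varied widely between arrays of the same group. The SD within groups had a median of 0.31 over the 14196 probe sets with signal. It was 1.63 for Txnip 1415997_at, 1.40 for Ddit4, 1.36 and 1.32 for the probe sets of Fbxo32, 1.29 for Sesn1 1438931_s_at and 0.84 for Cebpd, at the 99.7, 99.4, 99.3, 99.2, 99.0 and 94.3 percentiles. Klf15 (0.63) was at 86.2, while Txnip 1415996_at (0.40) was at 65.4, the Foxo3 probe sets with signal were at 65.6 and 37.7, and those of Foxo1 lay between 54.8 and 68.7. The values for Fbxo32 and for Txnip 1415997_at include the low mdx arrays 1 and 4, and within normal muscle the SD of Fbxo32 1448747_at was 0.26.

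**Figure D3:**
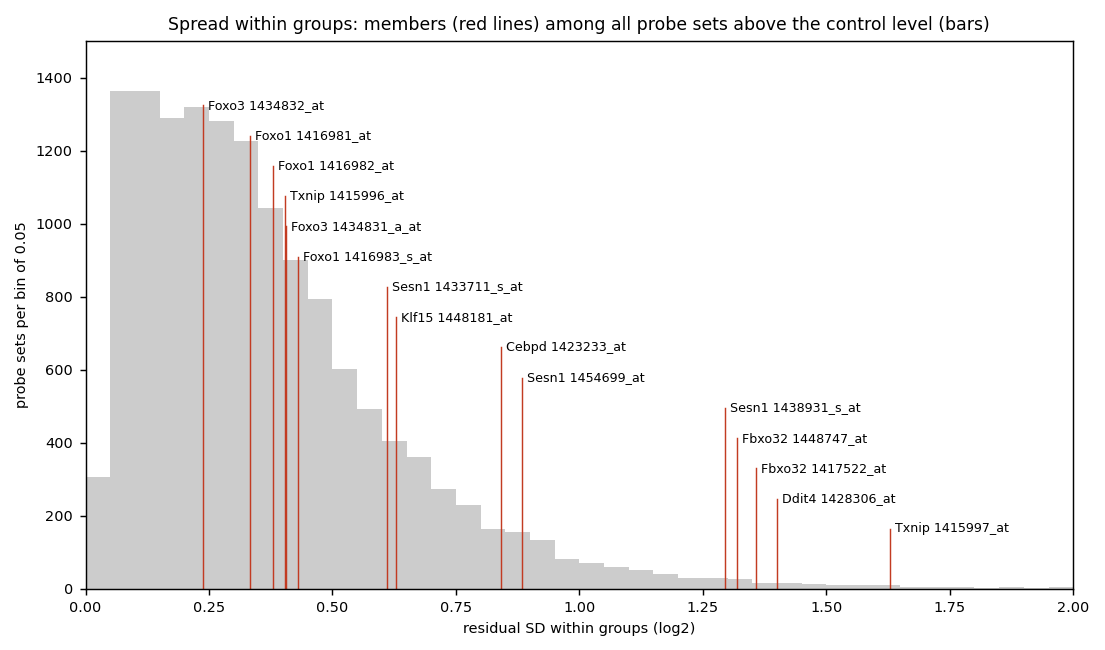
Distribution of the SD within groups (log2) over all probe sets with signal, in bins of 0.05 and with the axis ending at 2, and with lines for the 15 member probe sets with signal. Fbxo32, Ddit4, Sesn1 1438931_s_at and Txnip 1415997_at lie in the far right tail, at or above the 99.0 percentile, against a median of 0.31.

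The array sets, which were defined from the residuals of all probe sets, took up much of this spread for some members. Array set 1 exceeded array set 2 within groups by 1.99 for Sesn1 1438931_s_at, 2.06 for Ddit4, 1.24 for Cebpd and 0.83 for Klf15, which is 71.4%, 65.6%, 66.0% and 52.9% of their variance within groups. For Txnip 1415996_at it was 0.17, or 5.25% of the variance. The brightest probe set was higher in set 1 for all 8 member genes, with a median difference of 0.86, against -0.01 over all 9192 genes with signal, of which 47.2% were higher. Probe sets of 1 gene did not always share the pattern: Sesn1 1433711_s_at differed by -0.39 and Fbxo32 1417522_at by -0.89, opposite in sign to the brighter probe sets of those genes.

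The genes whose profiles over the 17 arrays were most like each member were found among 9184 genes. For Klf15 they were Zbtb16 (r = 0.89) and Fkbp5 (r = 0.88), both known as glucocorticoid receptor targets, and for Ddit4 they were Sgk1 (r = 0.88), another such target, and Itgb6 (r = 0.85). For Sesn1 they were Sox17 (r = 0.96) and Pofut2 (r = 0.95), for Cebpd Tardbp (r = 0.91) and Gspt1 (r = 0.89), and for Fbxo32 Smim10l1 (r = 0.92) and Gpt2 (r = 0.90), which encodes an alanine aminotransferase. For Txnip they were Gadd45b (r = 0.83) and Plin4 (r = 0.82), for Foxo1 Gon4l (r = 0.87) and Map3k6 (r = 0.86), and for Foxo3 Crim1 (r = 0.83) and the clock gene Per2 (r = 0.77). These correlations are descriptions over arrays that share groups and array sets.

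Muscle is a mixed tissue, and in these bulk samples fewer cells of a type and less RNA per cell cannot be told apart. Of 14 macrophage markers, 11 were higher in mdx than in normal muscle and 12 were lower in fiona than in mdx muscle. Their summed level on the linear scale was 660 to 1870 on normal arrays, 7511 to 18804 on mdx arrays and 806 to 1887 on fiona arrays, with 3 of the 14 at or under the control level on all normal and all fiona arrays. Of 8 markers of regenerating fibres and satellite cells, 5 were higher in mdx than in normal muscle, and 6 were lower and 1 higher in fiona than in mdx muscle. Their summed level was 195 to 256, 931 to 10087 and 271 to 400. Of 8 fibroblast markers, 3 were higher in mdx muscle and 6 were lower in fiona muscle than there, with sums of 8312 to 16572, 16778 to 33075 and 3450 to 13729. Without the arrays of female pattern, 7 macrophage, 2 regenerating and 1 fibroblast markers were lower in fiona than in mdx muscle, and in array set 2 these counts were 5, 0 and 0. Those higher in mdx than in normal muscle were 10, 2 and 1 without the arrays of female pattern, and 8, 2 and 1 in array set 2. The 1 higher call, Pax7 (0.07), was -0.056 after centring and was no longer called. The part of these cell types in the differences of Foxo1, Txnip and Cebpd was not tested.

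The wider pathways were read from 6 gene lists with the brightest probe set of each gene. In this set of 12393 probe sets, 4.5% were called between mdx and normal muscle (3.17% higher, 1.33% lower), 40.4% between fiona and mdx muscle (33.5% higher, 6.88% lower) and 0% between fiona and normal muscle. All 6 lists likewise had 0 calls between fiona and normal muscle. Directions between fiona and mdx muscle are given with the split after median centring.

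Of 20 measured genes of the ubiquitin ligase and proteasome list, 1 was called between mdx and normal muscle: Capn3, the gene of a muscle calpain, was lower (-0.56, adjusted p = 0.0404). This call was lost in 12 of the 17 fits without 1 array and at an adjusted p of 0.0543 with mdx and normal arrays paired. Between fiona and mdx muscle 1 was higher and 2 were lower, the proteasome subunit gene Psmd8 (-0.86) and the ubiquitin ligase gene Nedd4 (-0.31). After centring 0 were higher and 2 lower. The 1 higher call, Traf6, was on a probe set at the control level. The list's median was -0.05 for mdx against normal muscle, and -0.03 for fiona against mdx muscle, where the median of all genes was 0.08.

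Of 31 FoxO target and autophagy genes, 2 were higher and 2 lower in mdx than in normal muscle. Higher were Cdkn1a (1.41, adjusted p = 0.000791), which encodes the cell cycle inhibitor p21, and Ctsl (0.97, adjusted p = 0.00633), a lysosomal protease gene that macrophages also express. Lower were Pdk4 (-1.63, adjusted p = 0.0252), whose kinase turns muscle from glucose to fat oxidation, and the autophagy kinase gene Ulk2 (-0.78, adjusted p = 0.0189). The Pdk4 call was lost in 7 of the 17 fits without 1 array, and its adjusted p was 0.133 when mdx and normal arrays were paired. Between fiona and mdx muscle 4 were higher and 4 lower, or 1 and 4 after centring, with Ctsl at -1.19, Gadd45a at -1.05 and Cdkn1a at -1.01. The Gadd45a call was lost in 4 of the 17 fits without 1 array and without the arrays of female pattern (adjusted p = 0.205 in limma), and its difference was -1.81 in array set 1 and -0.39 in array set 2.

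The glucocorticoid list holds genes linked to glucocorticoid action, among them the receptor gene Nr3c1. Of its 29 genes, 3 were higher and 1 lower in mdx than in normal muscle. The higher genes were the metallothionein genes Mt2 (3.92) and Mt1 (3.14) and the AMP deaminase gene Ampd3 (1.11, adjusted p = 0.0273, or 0.0624 with mdx and normal arrays paired). In fiona against mdx muscle 7 were lower and 1 higher, or 5 and 0 after centring, and the 1 higher gene, Tat, was on a probe set at the control level. The largest decreases were Mt2 (-4.08), Mt1 (-2.78) and Angptl4 (-2.19), a lipoprotein lipase inhibitor gene. Without fiona array 5, 4 were lower in place of 7, and without the arrays of female pattern 2 were. The list's median for fiona against normal muscle was -0.44, where that of all genes was 0.04. It was -0.21 without the arrays of female pattern, -0.28 in array set 1 and -0.27 in array set 2.

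Of 24 genes of myostatin and activin signalling, 1 was called between mdx and normal muscle, Fstl1 (1.15, adjusted p = 0.0253), a follistatin-like gene of connective tissue cells whose call was lost in 5 of the 17 fits without 1 array. Between fiona and mdx muscle 5 were higher and 4 lower, or 0 and 4 after centring. The largest were Fstl1 (-1.47) and the TGF-beta receptor genes Tgfbr2 (-1.18) and Tgfbr1 (-1.08). Fst, the follistatin gene, and Inhbb were among the 5 higher calls, on probe sets at the control level.

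Of 27 genes of IGF, Akt and mTOR signalling, Igf2 (3.90) was higher and Rragd (-1.56), which encodes an amino acid-sensing GTPase of the lysosome, was lower in mdx than in normal muscle. Between fiona and mdx muscle 5 were higher and 5 lower, or 1 and 4 after centring. Among them were Igf2 at -2.65, Igf1 at -1.15 and the translation repressor gene Eif4ebp1 at -0.78. With quantile normalization the calls of Igf1 (adjusted p = 0.100 in limma) and Eif4ebp1 (0.0671) were lost, and that of Igf2 held. The Igf1 call was also lost in 1 of the 17 fits without 1 array, and its difference was -1.82 in array set 1 and -0.63 in array set 2. Of 15 genes of the arrestin and thioredoxin list, which holds relatives and partners of Txnip, Txn1 was higher in mdx than in normal muscle (0.95, adjusted p = 0.000952) and lower in fiona than in mdx muscle (-0.86, adjusted p = 0.00336). Txn1 encodes thioredoxin, the protein that Txnip binds, and its signs were opposite to those of Txnip in both comparisons. The other calls of this list between fiona and mdx muscle were 4 higher genes, 0 of them after centring.

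**Figure D4:**
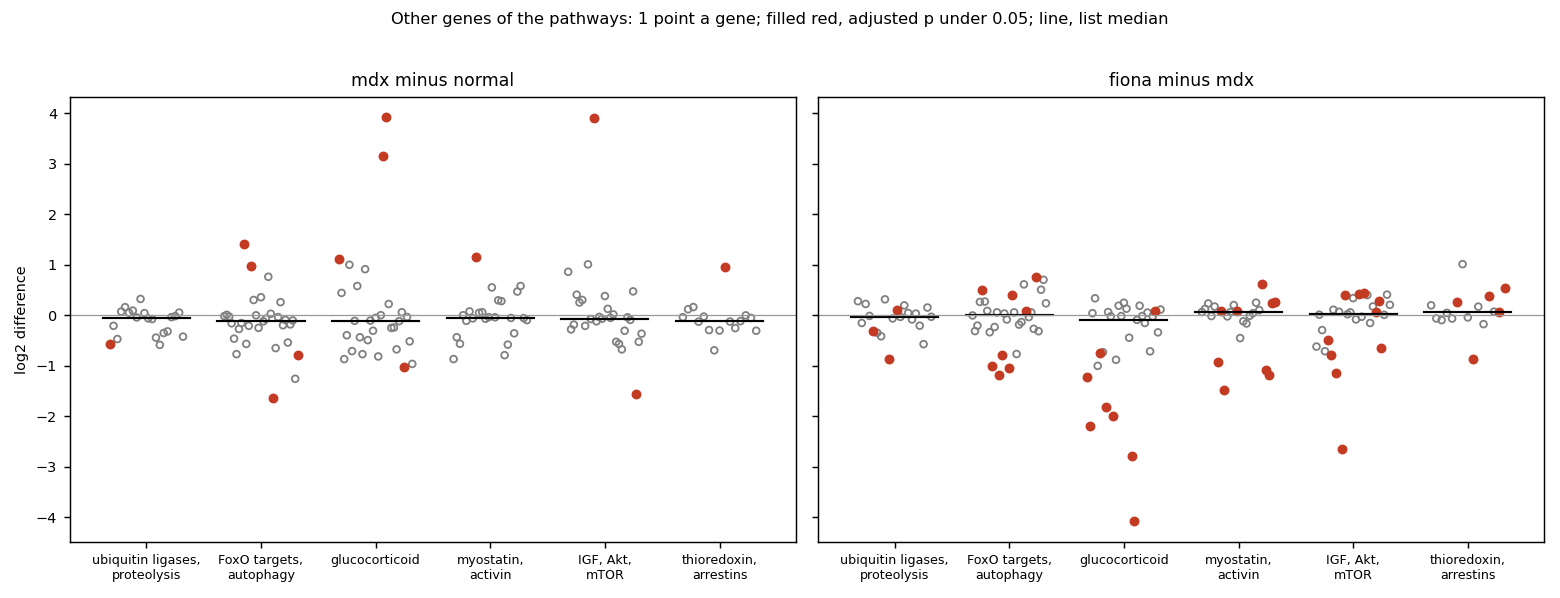
Log2 differences of the measured genes of the 6 pathway lists for mdx against normal and fiona against mdx muscle, each point 1 gene on its brightest probe set, with called genes marked and the list median as a line. Most points lie near 0. The called genes furthest from 0 are Mt2 (3.92) and Igf2 (3.90) in mdx against normal muscle. In fiona against mdx muscle it is Mt2 (-4.08).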

How the data were processed

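Gene expression was measured on 17 single-colour Affymetrix arrays of mouse tibialis anterior muscle, from 8 µg of RNA each, per the labels. The authors deposited log2 values, 1 for each probe set and array. RMA and GCRMA are both named in the submitters' processing notes, and no source used here says which one gave these values. These methods differ in background correction, which sets the level of dim probe sets. All 17 value columns were assigned to samples by their titles, and 0 columns were left over.

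Of 22690 probe sets, 64 controls, 691 with several gene symbols and 1555 with none were left out. The remaining 20380 were fitted as 3 group means, with no covariate and no filter on level, by lmFit and eBayes of limma 3.58.1 (R 4.3.3), and p-values were adjusted over all of them (Benjamini-Hochberg). Two-sided exact permutation tests over arrays stand beside it for member probe sets. Fits with a replicate, array set or sex pattern block, other scalings, filters and summaries, and fits without each array were alternatives. Figures used Python 3.11.15 and matplotlib 3.10.9.

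Same-numbered mdx and normal arrays deviated together from their group means (r from 0.10 to 0.61 over the 6 pairs, all above the limit set for pairing). Each such pair also lies in 1 array set, so r cannot tell a pairing of mice from a shared array set. The pairing by the numbers in the titles is therefore an assumption. Fiona arrays did not pair with either (r from -0.51 to 0.48). Their r was positive for numbers 2 and 4, where the array sets match, and negative for 1, 3 and 5, where they differ. The members and the gene lists were chosen with earlier results of these data known. The named genes are all members, up to 3 called genes of each list and comparison by size of the difference, and the 2 genes most like each member; list genes were left out for length. In addition, Tat, Traf6, Fst and Inhbb were named after their values were seen. RefSeq supplied the promoter windows.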

Additional observations from a re-analysis of the deposited data

Results flagged for a closer look

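Of 54 sets of values (18 probe sets in 3 groups), 6 held 1 array far from the others of its group by Dixon's test; chance alone flags about 1 in 20 groups. On Txnip 1415997_at, mdx array 1 measured 2.63, with the nearest other mdx array at 8.22, and fiona array 4 measured 8.17, with the nearest other fiona array at 9.41. On Fbxo32 1417522_at, mdx array 4 measured 2.59, with the nearest other at 7.39; on both this array and mdx array 1 of Txnip the value was under the array's control level. On Foxo1 1416982_at, mdx array 3 measured 5.06, the lowest of its group, with the nearest other at 5.63. On Sesn1 1433711_s_at, mdx array 1 measured 8.56, the highest of its group, with the nearest other at 7.39. On Foxo3 1434832_at, fiona array 2 measured 3.65, with the nearest other at 4.05.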

How the results depend on the processing

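The alternatives were chosen with the design, except the fits without the arrays of female or mixed sex pattern and the pairing of mdx and normal arrays alone, which were chosen after seeing the data. Of the member genes called, the number between fiona and mdx muscle was 4, and it fell to 1 with a replicate block, with median-centred arrays and with the mean of a gene's probe sets, to 2 with quantile normalization, with dim probe sets left out and with the brightest probe set of a gene, and to 0 in array set 2, without the arrays of female pattern and without those of female or mixed pattern (3 to 5 over the fits without 1 array). Between mdx and normal muscle it was 2, then 4 in array set 1, 0 in array set 2, 0 without the arrays of female pattern, 1 without those of female or mixed pattern and 1 with mdx and normal arrays paired (2 to 3 without 1 array). Between fiona and normal muscle it was 0, then 1 in array set 1, 1 without the arrays of female pattern and 2 without those of female or mixed pattern (0 to 1 without 1 array; 1 without mdx array 4 or fiona array 2).

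Over all probe sets, 8187 calls between fiona and mdx muscle became 598 with a replicate block, 1989 with median-centred arrays, 2899 with quantile normalization, 3062 with dim probe sets left out, 4818 with the brightest probe set and 5090 with the mean of each gene, 113 in array set 2, 2568 without the arrays of female pattern and 1684 without those of female or mixed pattern (5762 to 8964 without 1 array). The 826 calls between mdx and normal muscle became 1775 with an array set block, 4740 in set 1, 356 in set 2, 499 without the arrays of female pattern and 343 without those of female or mixed pattern (611 to 961 without 1 array), and 992 with mdx and normal arrays paired. Between fiona and normal muscle 1 call became 2 with a replicate block, 2 with dim probe sets left out, 2 with a trend in the variance, 0 with the brightest probe set, 10 with an array set block, 57 in set 1, 14 in set 2, 854 without the arrays of female pattern and 782 without those of female or mixed pattern (1 to 1366 without 1 array, with 1366 without fiona array 2, 5 without fiona array 1, 4 without mdx array 4 and 2 without normal array 5).

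Among differences called with all arrays or under the alternative, the sign reversed for 3, and uncalled differences changed sign too. Median centring turned the fiona difference from mdx muscle to -0.032 for Foxo1 1456529_at and to -0.0079 for Foxo3 1450236_at, both at the control level, where a shift of 0.12 decides the sign. Leaving out mdx array 4 turned that of Fbxo32 1417522_at to -0.82 (-0.82 to 0.36 over the fits without 1 array). With the replicate block over all 3 groups the Cebpd call between fiona and mdx muscle was lost (-1.83, adjusted p = 0.0510 in limma). Whether arrays with the same number belong together is not known. The pairing of mdx and normal arrays ended the Foxo1 calls and no other member call. With sex pattern as a block over all arrays, the number of member genes called stayed at 4 between fiona and mdx muscle. It stayed at 2 between mdx and normal muscle. The cause of the changes in counts was not tested. Signal close to the control level limits 3 of the 18 probe sets.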

Other observations

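Array set 1 and array set 2, which no label explains, differed in part of the genes of the glucocorticoid list. Of 26 such genes with signal, 18 were higher in set 1 after removal of the group means, with a median difference of 0.40 (all genes -0.01), and 6 exceeded 1 on the log2 scale (3.83% of all genes did). Of those 6, Klf9, Pik3r1, Glul, Sgk1 and Mt2 were higher in set 1 in all 3 groups, and Errfi1 was not. The Mt2 gap was small in mdx muscle (11.38 and 11.25). These genes were named after their values were seen. Klf9, a glucocorticoid receptor target, measured 12.49 in set 1 and 10.95 in set 2 of normal muscle, 11.78 and 10.04 in mdx muscle, and 12.02 and 10.39 in fiona muscle. Pik3r1, which encodes a regulatory subunit of PI3 kinase, measured 6.17 and 3.68, 5.03 and 3.48, and 4.76 and 3.66. Some genes of the list did not share this. Fkbp5 (7.90 and 7.94) and Zbtb16 (6.23 and 6.20) were level in mdx muscle. Errfi1 (7.08 and 7.56) and Gadd45g (7.16 and 7.81) were lower in set 1 of normal muscle. In mdx muscle Mt1 (10.71 and 11.17) and Angptl4 (5.05 and 5.87) were lower in set 1.

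Of 15 clock genes with signal, a list added after the array sets were seen, Nr1d1 and Dbp differed by more than 1 between the sets. Arntl (-0.084), Per1 (0.025), Npas2 (0.12), Rora (0.14), Cry2 (-0.19) and Per3 (-0.19) lay near 0. In between were Clock (0.99), Tef (-0.78), Bhlhe40 (-0.75), Nfil3 (0.72), Cry1 (0.66), Nr1d2 (0.43) and Per2 (0.41). Nr1d1, the gene of the clock repressor REV-ERB alpha, measured 5.35 in set 1 and 8.19 in set 2 of normal muscle, 3.74 and 6.91 in mdx muscle, and 4.93 and 7.28 in fiona muscle. Dbp, an output gene of the clock, measured 9.18 and 6.52 in normal muscle, 6.02 and 6.38 in mdx muscle, and 8.27 and 6.41 in fiona muscle, so the mdx arrays did not share the direction of the other groups. Over the 15 genes the median absolute difference was 0.43, against 0.20 for all genes. The sets were defined from the same arrays, so these are descriptions, and no time of day is given in the sources used here.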
